A study of Mus musculus with 39 samples.

Results

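The 3 arrays described here stand apart from the other arrays of a study of the mouse inferior colliculus by their level of Gabra6, the GABA-A receptor alpha6 subunit, whose transcript in the brain is largely a product of cerebellar granule cells. They were chosen by a single value, the first of the Gabra6 probe sets above 9.5 on the log2(intensity + 16) scale, and are 3 of 39 arrays: middle-aged replicates 7 and 8, from males, and young control replicate 2, from a female. The study measured transcripts in the inferior colliculus, the auditory centre of the midbrain, of untreated CBA/CaJ mice, an inbred strain used to follow hearing as it ages. Each mouse gave 1 Affymetrix MOE430A array with 22626 probe sets analysed. The 8 young controls (4 females, 4 males) and the 17 middle-aged mice (10 females, 7 males) had good hearing, 9 mice (4 females, 5 males) had mild presbycusis, the hearing loss of age, and 5 mice (4 females, 1 male) had severe presbycusis. The mice were bred in the submitters' colony and kept together in a quiet room, the colliculus was dissected by hand under a stereomicroscope, and the ages of the mice were not analysed here. Levels below are log2(intensity + 16), on which a difference of 1 is a 2-fold change in bright probe sets and less than that in dim ones. Probe sets of a gene are numbered in the order of their identifiers, and where no number is given, the one with the largest counted difference is meant or, for genes not counted, the one with the highest mean.

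The cerebellum lies directly behind the inferior colliculus. Its cortex is built from very numerous small granule cells, from large GABA-releasing Purkinje cells, from Bergmann glia whose processes surround the Purkinje dendrites, and from interneurons and unipolar brush cells. The colliculus has glutamate and GABA neurons of its own, marked by the vesicular glutamate transporter Slc17a6, the peptide precursor Tac1 and transcription factors such as Meis2, Lhx9 and Gata2, and lacks granule and Purkinje cells.

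Of the 3 arrays, young control replicate 2 stood apart most. Its median correlation with the other arrays of its group over all probe sets (log2 values) was 0.942. This was below the 0.944 to 0.961 of the other 22 young control and middle-aged arrays. Middle-aged replicates 7 and 8 lay inside that range at 0.957 and 0.956. The median intensity was 174 to 199 on the 3 arrays and 150 to 224 over all 39, and the arrays had been scaled to a trimmed mean of 500.1 to 500.2. A suffix in the array name marked 8 of the 39 arrays and 0 of the 3. Because young control replicate 2 leads many of the values below, each is given array by array, in the order middle-aged 7, middle-aged 8, young control 2, against the lowest, median and highest of the other 22 young control and middle-aged arrays. The Gabra6 values of these arrays chose them, and every other probe set on them comes from the same RNA, so the differences are a description and carry no p-value. Each is an adjusted difference, the 3 arrays minus the 22, from a linear model with group and sex, with its standard error (SE).

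Gabra6 itself read 12.68, 9.86 and 12.82 on the 3 arrays, against 6.57, 7.69 and 8.49 on the other 22, a difference of 4.09 ± 0.38 (SE). As intensities these were 6554, 916 and 7227. Middle-aged 7 and young control 2 were close to each other, and middle-aged 8 was much nearer to the threshold. The arrays just below it were mild presbycusis replicate 2 at 8.97, mild presbycusis replicate 4 at 8.67 and middle-aged replicate 1 at 8.49, so no array lay between 8.97 and 9.86. The second Gabra6 probe set read 9.18, 7.41 and 10.95, against 6.61 to 8.03, so that middle-aged 8 fell inside the range of the others there.

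Promoter sequences of 3 of the 4 marker genes of the comparison (Gabra6, Cbln3, Pcp2) are shown because their transcripts were high together on middle-aged 7 and young control 2. They are RefSeq sequences on GRCm38.p6, from 250 bases before to 50 after the annotated start, all on the minus strand and written 5′ to 3′ on the gene's strand. Capitals mark the E-box letters CAGATG, bound by factors of the NeuroD family, and the core motif TTGGC of nuclear factor I proteins such as Nfix, each searched on both strands (TTGGC reads as GCCAA on the other strand).
Gabra6, chr11:42321023-42321322: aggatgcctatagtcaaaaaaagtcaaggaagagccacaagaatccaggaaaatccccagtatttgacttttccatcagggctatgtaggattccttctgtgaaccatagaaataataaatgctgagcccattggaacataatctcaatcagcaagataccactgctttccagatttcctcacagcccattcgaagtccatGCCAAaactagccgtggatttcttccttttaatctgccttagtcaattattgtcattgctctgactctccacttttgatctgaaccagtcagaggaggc
Cbln3, chr14:55884207-55884506: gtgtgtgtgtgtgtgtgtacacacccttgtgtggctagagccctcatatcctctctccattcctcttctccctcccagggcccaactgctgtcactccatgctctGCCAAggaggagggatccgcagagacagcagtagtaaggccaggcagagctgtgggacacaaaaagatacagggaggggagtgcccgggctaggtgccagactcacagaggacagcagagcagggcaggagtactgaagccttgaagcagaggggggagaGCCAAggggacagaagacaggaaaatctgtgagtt
Pcp2, the first of 4 annotated starts, chr8:3625498-3625797: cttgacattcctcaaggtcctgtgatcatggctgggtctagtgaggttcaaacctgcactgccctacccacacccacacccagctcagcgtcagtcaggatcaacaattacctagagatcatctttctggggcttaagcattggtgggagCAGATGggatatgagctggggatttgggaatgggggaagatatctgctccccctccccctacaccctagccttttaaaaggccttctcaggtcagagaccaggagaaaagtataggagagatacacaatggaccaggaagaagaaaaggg
Gabra6 held 1 TTGGC, at -49 to -45 from the start. Cbln3 held 2, at -145 to -141 and at 16 to 20. Pcp2 held CAGATG at -100 to -95 and, not in capitals, the letters AGGTCA that the orphan receptor ROR binds, at -12 to -7. The palindromic full site of nuclear factor I was in none of the 3. Over 32851 promoters of this length, 46.7% held TTGGC, 17.2% CAGATG, 16.3% AGGTCA and 0.0365% the full site, so each of the short motifs is common. Promoters were looked up for 11 genes and 6 were found.

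Counted by a fixed rule, a difference of at least 1 with all 3 arrays outside the range of the other 22, 27 probe sets were higher on the 3 arrays (0.119% of 22626), 25 of them with 1 gene symbol, for 20 genes, and 1 was lower (0.00442%). Without the size limit, 70 probe sets lay above the range of the others on all 3 arrays (0.309%) and 31 below it (0.137%). Nothing is read from these shares, since the arrays were chosen for a high value on them. The median difference over all probe sets was -0.02.

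Granule cell genes led the higher ones. Neurod1, a transcription factor that granule cells keep expressing when mature, read 12.67, 9.77 and 12.88 on the 3 arrays, against 7.13, 8.10 and 9.38 (first probe set), a difference of 3.67 ± 0.45, and its second probe set differed by 2.65 ± 0.32. As for Gabra6, 2 arrays were far above the others at both probe sets and middle-aged 8 was nearer to them. Middle-aged 8 cleared the highest other array by less than for Gabra6: 9.77 against 9.38 and 10.04 against 9.87, beside 9.86 against 8.49 for Gabra6. Cbln1, the precerebellin that granule cells release onto Purkinje dendrites, read 12.30, 10.36 and 11.96, against 7.40, 9.23 and 10.08, and here middle-aged 7 was the highest array (2.34 ± 0.35). At the third Cbln1 probe set young control 2 was the highest, at 12.43 beside 11.24 on middle-aged 7. Nfix, a nuclear factor I protein active in granule cell maturation, read 10.25, 9.72 and 11.57, against 8.82, 9.27 and 9.71 (1.22 ± 0.20). Middle-aged 8 cleared the highest other array by a margin that is barely visible at 2 decimals, and another Nfix probe set differed by -0.16.

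Several granule cell genes were as different but were not counted, because middle-aged 8 stayed within the range of the others. Cbln3, a partner of Cbln1 made in granule cells and a marker gene here, read 9.15, 7.46 and 10.90, against 5.55, 6.91 and 7.89 (2.55 ± 0.36). Zic1, a zinc finger factor of granule cells and their precursors, read 12.16, 10.28 and 12.67, against 8.37, 8.87 and 10.75 (2.53 ± 0.37). In both genes 2 arrays stood above every other array and the remaining one did not. Chn2, a Rac regulator, read 12.30, 9.62 and 12.76, against 9.62, 9.97 and 10.43 (1.62 ± 0.31), and Cadps2, a secretion factor of granule cells, read 10.82, 9.10 and 12.23, against 8.44, 9.21 and 10.15 (1.54 ± 0.35). En2, an engrailed factor that patterns both midbrain and cerebellum, read 10.91, 10.05 and 11.18, against 8.68, 9.78 and 10.18 (1.02 ± 0.24). Other genes of the list did not separate the arrays. Reln, the secreted guide of neuron positioning that mature granule cells make, read 11.71, 11.39 and 12.02, against 11.10, 11.66 and 12.37, and Zic4, Mab21l1 and Barhl1 differed by 0.08, 0.05 and -0.17. Over the granule cell list, 23 of 28 genes were measured and 22 had a positive difference. Counted higher were 3 (Gabra6, Neurod1, Nfix), beside 0.119% of all probe sets. The median difference was 0.91, beside -0.02 over all probe sets. Gabra6, which chose the arrays, is in this list. The lists were chosen with earlier results of these data known, so these values are a description. The share of all probe sets with a positive difference is not given here, so the median of -0.02 stands beside such counts. Cbln1 was counted through a probe set other than the one that stands for it in the list.

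**Figure D1:**
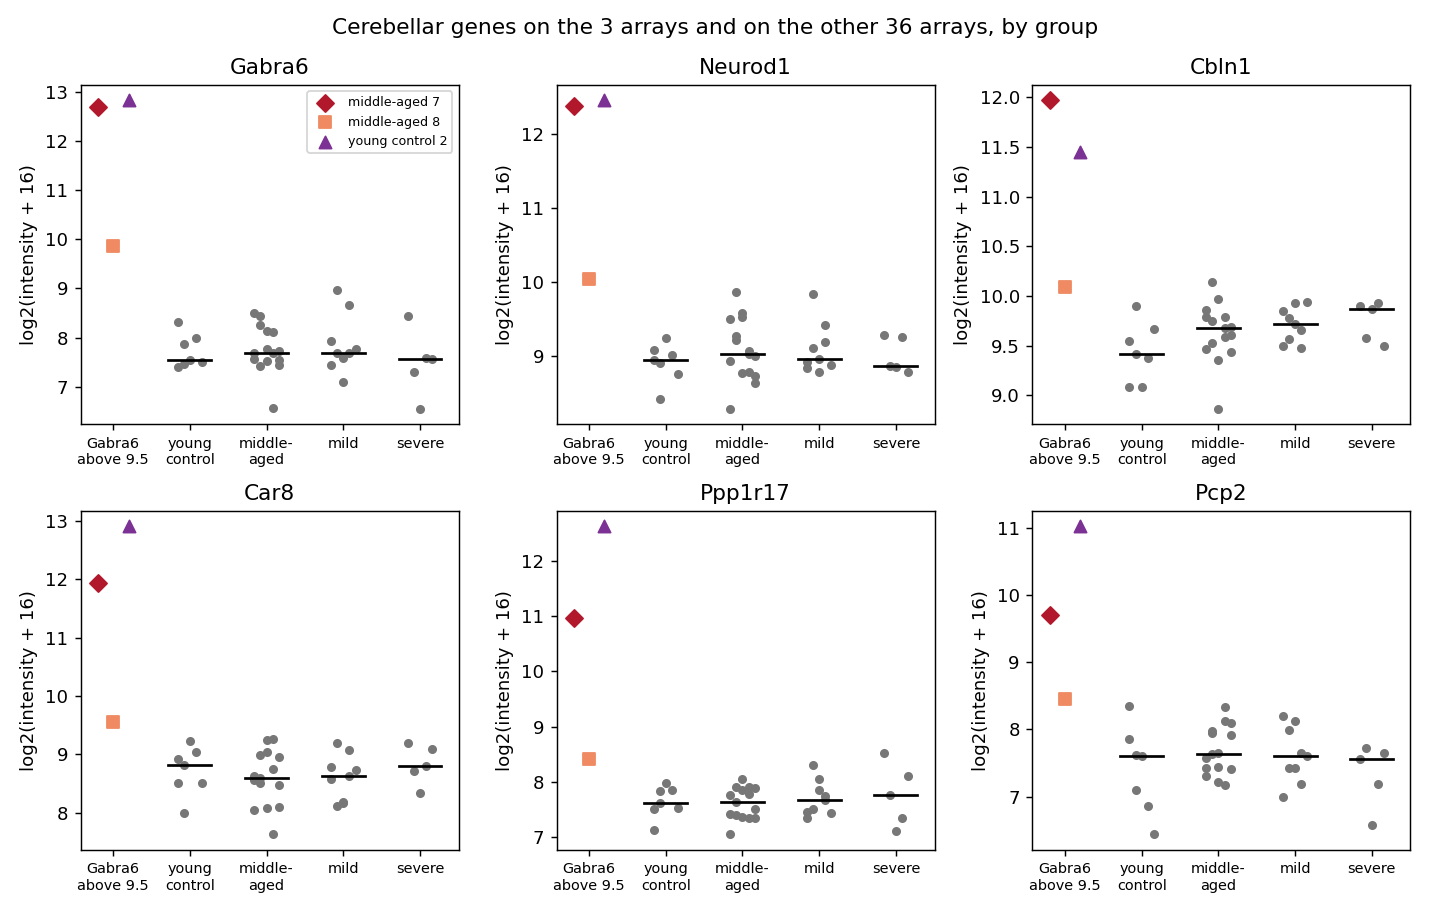
Levels of 6 cerebellar genes, log2(intensity + 16) on the vertical axis, with the 3 arrays on the left and the other 36 arrays by group (grey points, bar at the group median). Middle-aged 7 and young control 2 lie above all grey points in each panel, whereas middle-aged 8 lies above them for Gabra6, Neurod1, Car8 and Pcp2 and within them for Cbln1 (the probe set that stands for the gene in the list) and Ppp1r17.

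Purkinje cell genes were the second group, and for most of them young control 2 was the highest array. Ppp1r17, a phosphatase inhibitor known as G-substrate, read 10.96, 8.42 and 12.63, against 7.05, 7.63 and 8.05 (3.11 ± 0.38). Car8, a carbonic anhydrase relative that binds the inositol trisphosphate receptor, read 11.95, 9.56 and 12.91, against 7.63, 8.61 and 9.26 (2.81 ± 0.38). Pcp2, a G protein modulator and a classical Purkinje marker, read 9.70, 8.45 and 11.02, against 6.44, 7.61 and 8.34 (2.23 ± 0.34). For all 3 genes the arrays were ordered young control 2, middle-aged 7, middle-aged 8, and at the probe sets given all 3 lay above the range of the 22. Rgs8, a regulator of G protein signalling, kept that order at 10.65, 10.12 and 11.58, against 9.16, 9.51 and 9.84 (1.26 ± 0.17). Calb1, the calcium buffer calbindin, read 12.60, 10.91 and 12.50, against 9.56, 10.19 and 11.88 (1.67 ± 0.33). Calbindin is also made by neurons of the colliculus, and middle-aged 8 lay within the range of the others. The parvalbumin gene Pvalb differed by 0.90 ± 0.31, the calcium channel Cacna1g by 1.05 ± 0.42 and the calcium pump Atp2a3 by 1.01 ± 0.22 at one probe set and by -0.12 at another.

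Other Purkinje genes did not separate the arrays. Pcp4, a calmodulin-binding peptide, read 12.36, 12.20 and 12.22, against 11.90, 12.30 and 12.88 (-0.01 ± 0.16). Aldoc, known as zebrin II, read 12.19, 12.17 and 12.29, against 11.43, 12.17 and 13.35. The nuclear receptor gene Rora differed by 0.18 ± 0.13 and the factor gene Foxp2 by 0.06 ± 0.54. Of the 32 genes in the Purkinje list, 25 were measured and 20 had a positive difference. The median difference was 0.35, beside -0.02 over all probe sets, and 4 genes were counted higher, beside 0.119% of all.

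Among Bergmann glia genes, Hopx and Gdf10 differed by more than 1. Hopx, a homeodomain protein of Bergmann glia, read 11.69, 10.76 and 12.54, against 9.45, 10.16 and 10.68 (first probe set, 1.59 ± 0.23), above the range on all 3 arrays. Gdf10, a growth factor of Bergmann glia, read 7.66, 6.99 and 9.33, against 4.90, 5.92 and 7.40 (2.13 ± 0.37), with middle-aged 8 inside the range. Fabp7, a fatty acid carrier of Bergmann glia and other astrocytes, read 11.22, 11.13 and 10.98, against 10.32, 11.06 and 11.75, and did not separate the arrays. Slc1a3, the glial glutamate transporter, read 9.98, 9.80 and 10.85, against 9.01, 9.68 and 10.25 (0.55 ± 0.20, with -0.28 at another probe set), and Timp4, a metalloproteinase inhibitor, differed by 0.62 ± 0.16. Of 11 genes in the list, 10 were measured and 5 had a positive difference (median 0.20, beside -0.02 over all probe sets). Genes of cerebellar interneurons and unipolar brush cells had a median difference of 0.08 over the 11 of 15 measured, with 0 counted. Eomes, a factor of unipolar brush cells, read 8.28, 7.43 and 9.08, against 6.33, 7.73 and 8.38 (0.68 ± 0.31), so 1 array was above the range, and Nxph1, a neurexin ligand of interneurons, was below the range on middle-aged 8 and young control 2 (-1.37 ± 0.30).

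The marker genes of the comparison were high unevenly. Gabra6 chose the arrays and was high by that choice. Of the other 3, Car8 and Pcp2 were above the range on all 3 arrays at their counted probe sets, and Cbln3 on 2 arrays. At the other Car8 probe set middle-aged 8 was within the range, at 7.47 against 6.82 to 7.73. It was also within the range at the other 2 Pcp2 probe sets, at 4.76 against 4.72 to 5.92 and at 4.92 against 4.52 to 7.02. The summed intensity of the granule list, Gabra6 included, was 41797, 16572 and 56732, against 11789 to 16761 on the other arrays, and that of the Purkinje list 35119, 23533 and 53848, against 18731 to 29378. Middle-aged 8 was inside the range of the others on both sums, while the other 2 arrays were far above it. In bulk tissue, more cells of a type and more RNA per cell cannot be told apart.

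Among the 20 genes counted higher, 11 are in no cerebellar list. Crtam, an adhesion molecule first described on T cells, read 8.42, 6.29 and 10.25, against 4.60, 5.20 and 6.16 (3.10 ± 0.42), and Itpka, an inositol trisphosphate kinase, read 7.68, 7.27 and 9.34, against 5.78, 6.54 and 7.03 (1.59 ± 0.28). Both had the order of the Purkinje markers. Kitl, the ligand of the receptor Kit, read 10.49, 9.75 and 10.79, against 8.61, 9.27 and 9.69 (1.08 ± 0.20), although 2 of its other probe sets differed by -0.30 and -0.15. Rnf112, a brain ring-finger GTPase, read 10.68, 9.92 and 10.74, against 8.54, 9.09 and 9.61 (1.32 ± 0.20 at one probe set, 1.25 ± 0.19 at another and -0.70 at the remaining one). The kinase gene Sbk1 differed by 1.10 ± 0.18, the diacylglycerol kinase gene Dgkz by 1.11 ± 0.17 and Dipk2a by 1.09 ± 0.21.

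The remaining 4 genes include 2 probe sets, of Faap20 and Sec61a1, at which middle-aged 8 read higher than young control 2. Faap20, a member of the Fanconi anaemia repair complex, read 10.31, 9.93 and 9.36, against 6.86, 7.96 and 8.97 (1.86 ± 0.28), while its other counted probe set read 10.00, 9.83 and 10.29, with young control 2 highest (1.02 ± 0.16). Sec61a1, the channel of the endoplasmic reticulum translocon, read 8.58, 8.91 and 8.52, against 5.24, 7.40 and 8.26 (1.23 ± 0.37), and 2 of its other probe sets differed by -0.10 and -0.09. Entr1, an endosomal trafficking factor, read 7.71, 8.01 and 8.13, against 5.76, 6.66 and 7.42 (1.35 ± 0.31), while its other probe sets differed by 0.40, 0.05 and 0.07. These genes are in none of the cerebellar lists. Hagh, a glyoxalase, read 10.85, 11.05 and 11.75, against 9.18, 10.12 and 10.66 (1.00 ± 0.20), while its other probe sets differed by 0.33 and 0.29. The 1 gene counted lower was Bzw1, a regulator of translation initiation, at 9.91, 9.96 and 8.85, against 10.00, 10.66 and 11.08 (-1.02 ± 0.21).

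The arrays also differed in how much they shared. Counting probe sets at least 1 above the mean of their own group's other arrays and above the range of all 22, middle-aged 7 had 217, middle-aged 8 had 129 and young control 2 had 540. Middle-aged 7 and young control 2 shared 73 of these, which is 33.6% of those of middle-aged 7 and 13.5% of those of young control 2, and all 3 arrays shared 7. The shared 73 hold Neurod2, a relative of Neurod1 that granule cells express as well as cortical neurons, at 8.96, 6.57 and 10.21, against 6.50, 6.73 and 8.08. In the other direction the counts were 163, 279 and 482, with 9 shared by middle-aged 7 and young control 2 and 0 by all 3. All these counts are out of 22626 probe sets. Nothing is read from the high side being shared more than the low side, since the arrays were chosen for a high value.

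**Figure D2:**
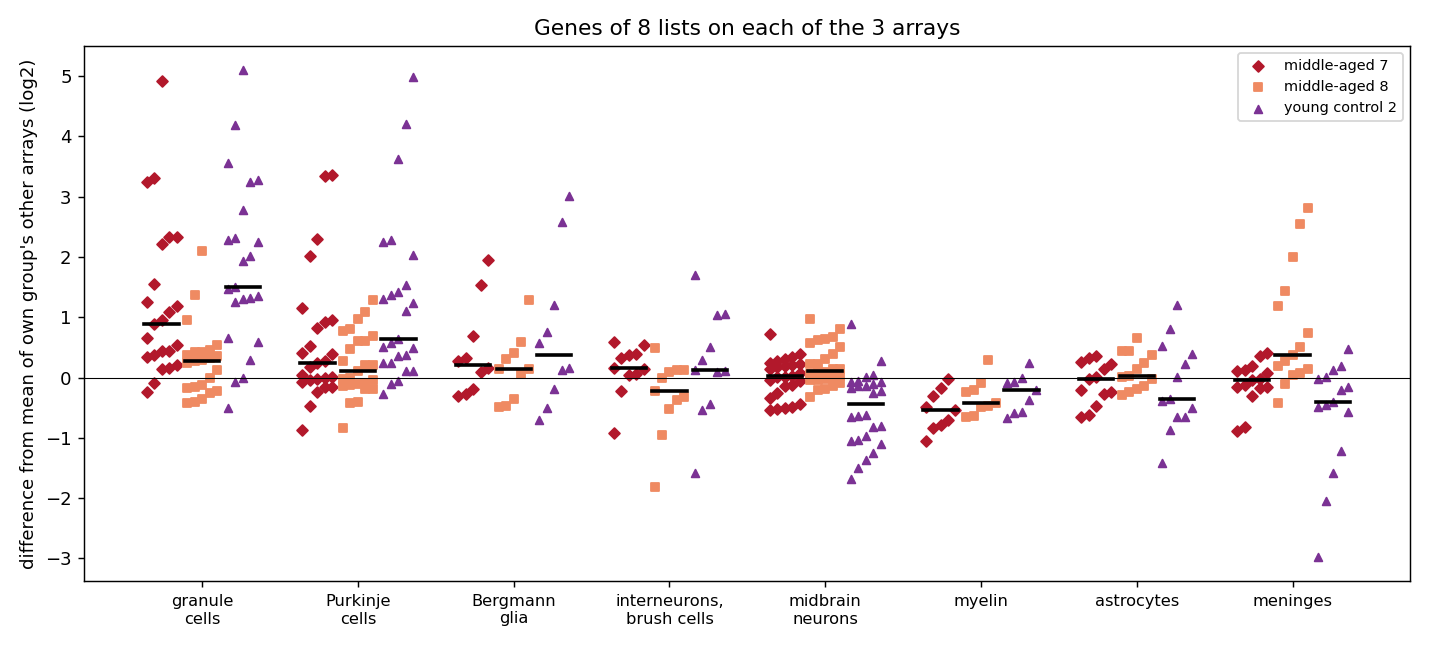
Difference of each listed gene from the mean of its own group's other arrays (log2, vertical axis) on each of the 3 arrays, for 8 gene lists, with a bar at the median. Granule and Purkinje cell genes reach differences above 3 on middle-aged 7 and young control 2, midbrain genes lie lower on young control 2 (median -0.44) than on the other 2 arrays, and meningeal genes lie higher on middle-aged 8.

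Genes of the colliculus itself were present on all 3 arrays. Slc17a6 read 11.97, 12.13 and 11.49, against 11.78, 12.23 and 12.86, and Tac1 read 11.44, 11.77 and 11.32, against 11.47, 11.96 and 12.43. Young control 2 was below the other 22 for both genes, and middle-aged 7 for Tac1. Lhx9, a factor of midbrain glutamate neurons, read 11.18, 11.24 and 9.58, against 10.12, 10.98 and 11.29, and Meis2 read 10.58, 11.01 and 9.48, against 10.29, 10.64 and 11.33. Again only young control 2 fell below the range. The midbrain list, with 26 of 32 genes measured, had a median difference of -0.04, beside -0.02 over all probe sets. It had 9 positive differences and 0 genes counted. Below the range on all 3 arrays was 1 gene, beside 0.137% of all probe sets (Irx2, an iroquois factor, at 8.04, 8.16 and 8.16, against 8.17, 8.39 and 8.91). The summed intensity of the list was 30003, 31974 and 18206, against 24924 to 36397, so it was low on young control 2 alone.

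Markers of other cells moved in part with single arrays. Myelin genes, with 9 of 12 measured, had 1 positive difference and a median of -0.37, beside -0.02 over all probe sets. Their summed intensity was 18489, 20513 and 22343, against 21150 to 36689, below the range on the middle-aged pair. Aspa, the oligodendrocyte aspartoacylase, was below the range on all 3 arrays at 8.74, 9.16 and 8.96, against 9.30, 9.70 and 10.13 (-0.75 ± 0.15). Meningeal genes were high on middle-aged 8: Igf2, a growth factor of the leptomeninges, read 6.46, 9.58 and 7.64, against 5.88, 7.10 and 9.74, and Ogn, a matrix proteoglycan, read 7.22, 9.36 and 6.87, against 5.72, 7.15 and 9.95. Neither of the meningeal genes left the range of the others. The astrocyte connexin gene Gjb6 read 10.54, 10.79 and 9.42, against 10.44, 10.84 and 11.27. List medians were 0.29 for immediate early genes, 0.28 for thalamus (8 of 9 measured, Zic1 and Calb2 among them), 0.09 for glutamate receptors, 0.08 for cortex and hippocampus, 0.01 for hindbrain and for pineal gland, -0.01 for meninges and for endothelium, -0.09 for aminergic neurons, -0.11 for astrocytes and for microglia, -0.20 for choroid plexus, -0.21 for blood (3 of 7 measured) and -0.80 for ependyma (2 of 8 measured). The part of any of these in the differences above was not tested.

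GABA genes, the subject of the study, mostly did not follow Gabra6. Gabrd, the delta subunit that pairs with alpha6 in granule cells, read 8.59, 7.64 and 9.59, against 6.61, 7.48 and 8.01 (1.22 ± 0.29), so 2 arrays were above the range and middle-aged 8 was not. Gabra3 read 6.65, 6.52 and 5.40, against 6.20, 6.90 and 7.51 (-0.77 ± 0.26), and Gabrg1 read 8.91, 9.45 and 8.13, against 8.61, 9.19 and 9.63 (-0.42 ± 0.17). In these values young control 2 was below the range of the others for both subunits. The authors' deposited RMA signals, described below, were again low for Gabrg1 on young control 2, at 1777 against 2681 to 5341. For Gabra3 they went the other way, at 870 on young control 2 against 658 to 862. The direction for Gabra3 on this array thus depended on which deposited values were used, and the cause was not tested. Gabrb1 read 12.40, 12.24 and 12.30, against 11.87, 12.25 and 12.78 (0.04 ± 0.14). Of 13 measured subunits of 19, 5 had a positive difference, with a median of -0.09, beside -0.02 over all probe sets. The GABA vesicle transporter Slc32a1 read 10.82, 10.45 and 12.21, against 10.45, 10.68 and 11.65 (0.38 ± 0.24, with -0.29 at another probe set), high on young control 2 alone. Gad1 and Gad2, which make GABA, differed by -0.14 ± 0.19 and -0.17 ± 0.20, and Abat, which breaks it down, by -0.45 ± 0.17.

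How far each array exceeded its own group was compared gene by gene on the linear scale, as the excess intensity over the mean of the group's other arrays. On middle-aged 7 the excess of granule genes was close to that on young control 2 for Neurod1 (93.2% of it, second probe set) and Gabra6 (90.3%, first probe set), and above it for Cbln1 (131%, second probe set). It was much smaller for Cbln3 (24.4%), the glutamate receptor gene Grin2c (29.4%) and Gabrd (32.8%). Among Purkinje genes it was 107% for Calb1 (first probe set), 48.6% for Car8, 32.6% for Pcp2 and 29.2% for Ppp1r17, and among Bergmann glia genes 43.6% for Hopx and 26.1% for Gdf10. These percents depend on the probe set. At the second Gabra6 probe set the log2 excess was 1.83 on middle-aged 7 and 3.78 on young control 2. It was 2.05 and 3.69 at the third of Cbln1, and 1.49 and 3.23 at the second of Calb1. The first probe sets of Neurod1 (84.6%) and Cbln1 (153%) stayed close to young control 2 or above it. On middle-aged 8 the excess was 10.0% for Gabra6, 9.49% for Neurod1, 4.82% for Car8, 7.35% for Pcp2 and 2.34% for Ppp1r17, against 168% for Faap20, 173% for Sec61a1 and 101% for Entr1. The probe sets were those that exceeded their group by at least 1 (log2) and the range of the 22 on young control 2, or met the count rule. Since most were picked for a high value on young control 2, which is also the denominator, the percents lean low by that choice and are given as a description.

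**Figure D3:**
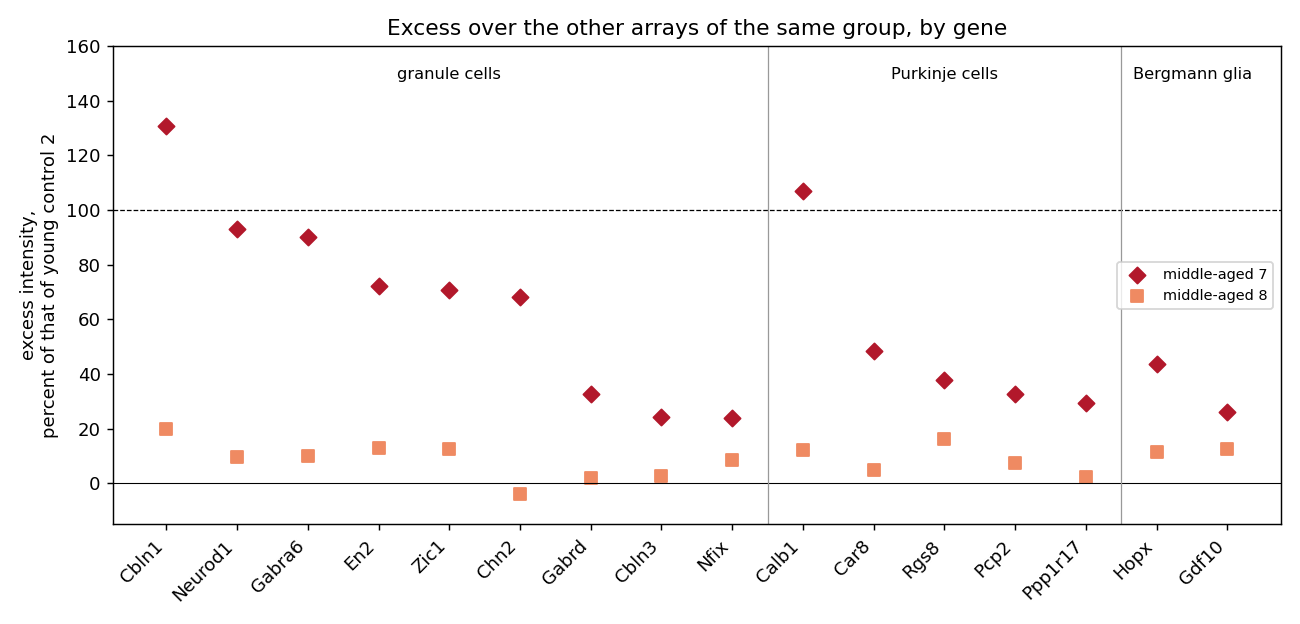
Excess intensity on middle-aged 7 and middle-aged 8 over the mean of the other middle-aged arrays, as a percent of the excess on young control 2 over the other young controls (vertical axis; dashed line at 100), for 16 selected genes of 3 cerebellar lists. At the probe sets drawn, middle-aged 7 reaches 131% for Cbln1 and 107% for Calb1 and is under 50% for Hopx and Gdf10, and middle-aged 8 does not exceed 19.9%.

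Whether these genes also go with Gabra6 where the rule chose nothing was tested in the 36 other arrays, whose Gabra6 level ran from 6.56 to 8.97 with a median of 7.68. limma fitted a slope on Gabra6 with group and sex for each of 22625 other probe sets. After Benjamini-Hochberg adjustment 3 slopes were positive (0.0133%) and 1 negative. Of the 26 other probe sets counted higher on the 3 arrays, 1 was among them: Neurod1 (first probe set) rose by 0.75 ± 0.13 per unit of Gabra6 (SE, 36 arrays, limma adjusted p = 0.0332). At an unadjusted p under 0.05, 6 of the 26 had a positive slope, beside 6.11% of all probe sets, and 21 of the 26 slopes were positive, beside 65.3% of all. After quantile normalization 19 of the 26 slopes were positive, beside 49.1% of all, and after centring of each array 18, beside 44.3%. The second Neurod1 probe set had a slope of 0.45 ± 0.09 (limma adjusted p = 0.119), Car8 of 0.51 ± 0.11 (limma adjusted p = 0.207) and Ppp1r17 of 0.35 ± 0.11 (limma adjusted p = 0.446). Crtam, Cbln1 and Pcp2 had slopes of 0.17 ± 0.16, 0.04 ± 0.17 and 0.05 ± 0.16, none past the threshold. Over the 4 cerebellar lists, 49 of 68 probe sets had a positive slope (median 0.09, beside 0.05 over all) and 0 passed after adjustment. At an unadjusted p under 0.05, 6 of the 68 were positive and 4 negative, beside 6.11% and 2.06% of all. The positive slopes of the lists numbered 42 after quantile normalization (median 0.034, beside -0.0026 over all) and 40 after centring (0.017, beside -0.017). The other positive slopes were Map3k21, a kinase gene, at 0.98 ± 0.16 (limma adjusted p = 0.0183) and Svbp, a partner of vasohibin, at 0.61 ± 0.12 (limma adjusted p = 0.0448), and the negative one was Zfp1, a zinc finger gene, at -1.11 ± 0.21 (limma adjusted p = 0.0470).

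The Neurod1 slope passed the threshold narrowly. It was positive in all 49 alternatives, from 0.69 to 0.96, and past the threshold in 32. The call was lost without each of 10 arrays in turn: young control 5 (adjusted p = 0.0546), middle-aged 1 (0.0690), middle-aged 2 (0.0960), middle-aged 4 (0.0825), middle-aged 9 (0.0535), middle-aged 15 (0.0583), mild 2 (0.156), mild 3 (0.0611), mild 4 (0.0795) and severe 1 (0.0631). It was also lost after quantile normalization (0.0894) or centring of each array on its median (0.195), and with the mean of the 4 markers in place of Gabra6 (0.0743). Among the young control and middle-aged arrays alone the slope was 0.88 (limma adjusted p = 0.753), and within young control, middle-aged and mild arrays it was 0.75, 0.91 and 0.96. Map3k21 lost its call without each of 5 arrays (middle-aged 2, middle-aged 4, mild 3, mild 4, severe 1), while Svbp kept its call in 19 and Zfp1 in 9 of the 36 fits that leave out 1 array.

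**Figure D4:**
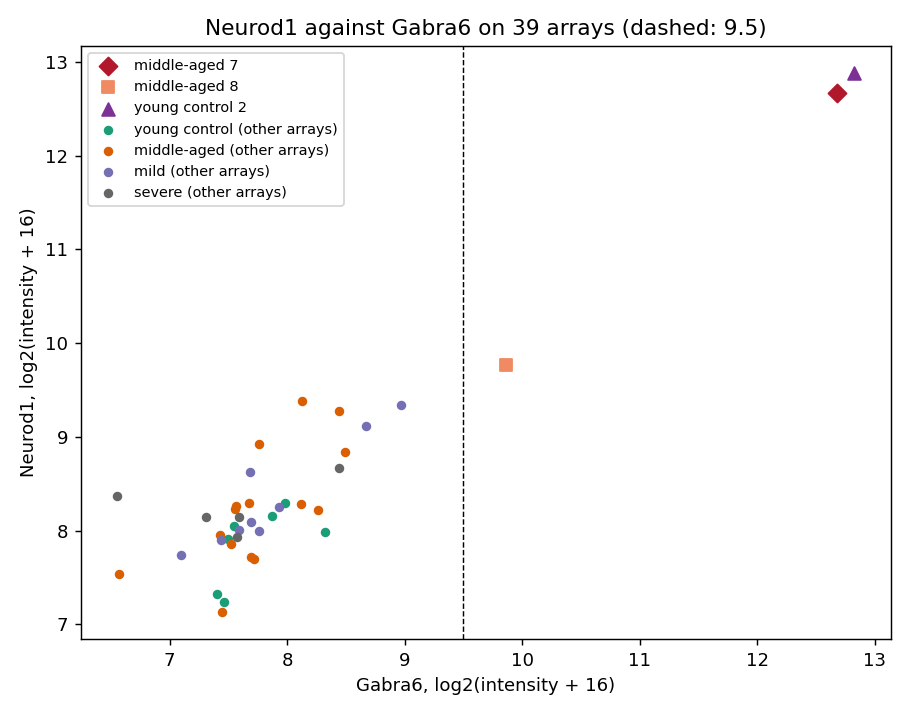
Neurod1 (first probe set, vertical axis) against Gabra6 (horizontal axis), both log2(intensity + 16), on all 39 arrays, coloured by group, with the dashed line at the threshold of 9.5. The 3 arrays lie right of the line at 12.67, 9.77 and 12.88 for Neurod1, and the other 36 lie left of it, with mild presbycusis 2 nearest at 8.97 for Gabra6.

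The 3 arrays sit in the 2 groups with good hearing, so middle-aged and young mice were compared with and without them. With all arrays Gabra6 averaged 8.17 ± 1.35 in middle-aged mice (SD, n = 17) and 8.36 ± 1.83 in young controls (SD, n = 8). Without the 3 arrays it averaged 7.76 ± 0.48 in middle-aged mice (SD, n = 15) and 7.73 ± 0.34 in young controls (SD, n = 7). The SD in both groups was thus much smaller without these arrays. The difference, middle-aged minus young, was -0.19 ± 0.52 (SE) with them and -0.00 ± 0.23 without. For Car8 it was -0.38 ± 0.39 and -0.09 ± 0.19, for Ppp1r17 -0.40 ± 0.42 and -0.02 ± 0.16, for Cbln3 -0.18 ± 0.37 and 0.13 ± 0.24, and for Pcp2 -0.01 ± 0.33 and 0.29 ± 0.21, so the last 2 changed direction. None of these passed the threshold in limma either way. The standard error was smaller without the 3 arrays for 27 of the 27 probe sets counted higher (median 0.161 without, 0.221 with) and for 6.46% of all probe sets (median 0.162 without, 0.150 with). That the 27 became tighter follows from how they were chosen.

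The same probe set was called with and without the 3 arrays together. Pcdhb9, a protocadherin of the beta cluster, was the 1 probe set past the threshold both with the 3 arrays (0.58 ± 0.09, limma adjusted p = 0.00730, 0.00442% of probe sets) and without them (0.57 ± 0.10, limma adjusted p = 0.0185, 0.00442%). It averaged 10.52 ± 0.17 in middle-aged mice (SD, n = 17) and 9.94 ± 0.29 in young controls (SD, n = 8). Its call was lost when young control 1 or young control 2, one of the 3 arrays, was left out alone, and after centring of each array, among 19 alternatives in which the difference was 0.51 to 0.62. At an unadjusted p under 0.05 there were 839 probe sets without and 1151 with the 3 arrays, 561 of them shared, out of 22626. Chance alone gives a p under 0.05 to a share of 0.05 of probe sets, so no differences between the groups are read from these counts. Igf2 came nearer to the threshold, at -2.24 ± 0.43 without (limma adjusted p = 0.0788) and -1.82 ± 0.44 with (limma adjusted p = 0.760), and so did Ogn, at -1.66 ± 0.34 without (limma adjusted p = 0.144) and -1.25 ± 0.36 with (limma adjusted p = 0.925). Igf2 and Ogn are the meningeal genes that were high on middle-aged 8.

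The authors' table of RMA signals for 33 probe sets of GABA genes carries the same 3 arrays. Its Gabra6 signal (first probe set) was 41619, 6095 and 41774, against 568 to 2111 on the other 22, with a median of 817. The mean of the young controls, the denominator of every deposited ratio, was 6013 with young control 2 and 904 without it. Ratios recomputed the way the authors made them matched all 33 deposited ones within 0.001. In the authors' deposited table the Gabra6 ratio was 0.207 in middle-aged, 0.158 in mild and 0.136 in severe presbycusis mice, a fall of several fold against young controls. Recomputed without the 3 arrays, it was 0.982, 1.05 and 0.904, and without young control 2 alone 1.38, 1.05 and 0.904. With the median of the young controls as denominator and all arrays kept, it was 1.48, 1.13 and 0.971.

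The second Gabra6 probe set had signals of 2146, 1143 and 10409, against 793 to 1283, and its ratios of 0.479, 0.488 and 0.451 in the authors' deposited table became 0.994, 1.07 and 0.988 without the 3 arrays. Gabrd had signals of 1761, 1159 and 3171, against 772 to 1420, and its ratios of 0.814, 0.783 and 0.745 in the authors' deposited table became 0.984, 0.984 and 0.936. These 3 were the probe sets whose ratios changed by over 10%, out of 33. Without young control 2 alone the ratios were 1.05, 1.07 and 0.988 for this Gabra6 probe set and 1.02, 0.984 and 0.936 for Gabrd. The low deposited ratios of Gabra6 and Gabrd in all 3 older groups were thus obtained only with that young array in the mean.

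**Figure D5:**
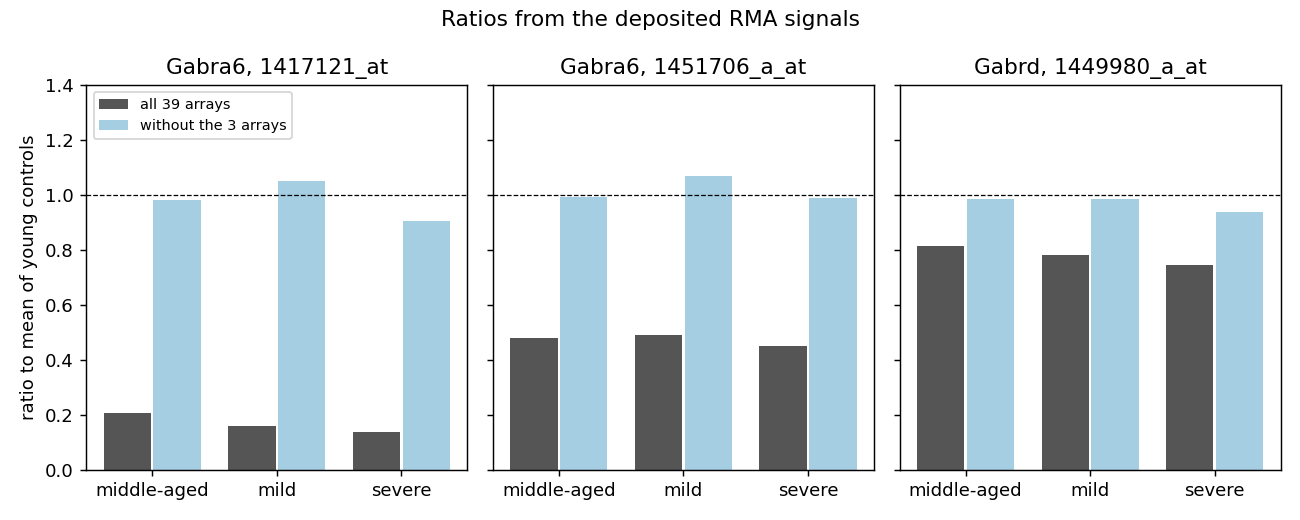
Ratio of each older group to the mean of the young controls (vertical axis, dashed line at 1) from the deposited RMA signals, with all 39 arrays (dark bars) and without the 3 arrays (light bars), for both Gabra6 probe sets and Gabrd. The dark bars for the first Gabra6 probe set stand at 0.207, 0.158 and 0.136 and the light ones at 0.982, 1.05 and 0.904.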

How the data were processed

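Inferior colliculus RNA from 39 mice was hybridized as biotin-labelled cRNA, 1 array per mouse, per the labels' protocols. Intensities were deposited for each probe set and array; no header or label names the algorithm behind them (not given in the sources used here). Each array has a trimmed mean near 500 (500.101 to 500.198, 2 percent left out at each end). A second table holds RMA signals (intensity) of 33 probe sets, per the file headers, and the authors' ratio of each older group to the young controls, which recomputation showed to be made from the mean log2 ratio per mouse to the young mean. Another 249 columns with values per sample were left out.

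Of 22690 probe sets, 64 controls were left out. The platform annotation gave 1 symbol for 20380, several for 691 and none for 1555, and 20351 identifiers matched the reference gene table with 0 symbols changed. Values were used as log2(intensity + 16) without further normalization. limma 3.58.1 in R 4.3.3 (empirical Bayes with a trend) fitted the 3 arrays against 22 others (group and sex as covariates, no p-value), the slope on Gabra6 in 36 arrays (group, sex) and middle-aged against young mice (sex), with 2-sided tests and Benjamini-Hochberg adjustment over all probe sets at 0.05. Signed ratios in the RMA table got no test. Figures were drawn with matplotlib 3.10.9 in Python 3.11.15. Groups come from the labels' hearing status. The p-values measure the spread between single mice, each with 1 array, and the number of arrays limits the precision.

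The members and the gene lists were chosen with earlier results of these data known, and some lists were drawn up by a session that had seen them. Named were the 20 largest higher and 10 largest lower counted differences with 1 symbol, the 4 markers, genes of the cerebellar and GABA lists, up to 4 genes of each other list by size of difference, and the smallest p-values of the tests. In a list each gene stands by its probe set of highest mean, and other probe sets are given where their sign disagrees. The lists number 23.

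On simulated data with 200 changed probe sets of 22626, the count rule recovered 43.5% of changes of 1 and 96.5% of changes of 2 in the 3 arrays against the others, with 6 and 2 false ones. The slope (22625 probe sets) recovered 99% of slopes of 1 and 99.5% of slopes of 2, with 11 and 16 false ones. Middle-aged against young recovered 97.5% and 99.5%, with 5 and 17 false ones. The simulated noise was independent between probe sets. Slopes below 1, such as those of the cerebellar genes above, were not simulated, so these shares do not apply to them. Alternatives were quantile normalization, centring, pseudocounts of 1 and 64, a filter on the dimmest 40 percent, a fit without sex, the array-name suffix as a covariate, other comparison arrays, other size limits, plain probe sets only, each group alone and leaving out arrays. Chosen after seeing the data were the slope without each of 36 arrays, the RMA ratios without young control 2 alone or without each severe mouse, and the count with no minimum size.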

Additional observations from a re-analysis of the deposited data

Results flagged for a closer look

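Within the groups of 8 young controls and 9 mild presbycusis mice, 1 array was far from the nearest other for 24 of 78 gaps examined (26 probe sets in 3 groups); chance flags about 1 in 20 groups. The value given is the gap to the nearest array as a share of the group's whole range. Young control 2 was the far array in 20 of the 24, always on the high side. All 26 probe sets but Cbln3 had been counted because this array and 2 others lay above the range, so a high value on it was fixed by that choice and the chance rate does not apply to it. Among the 4 markers the gap was 0.83 for Gabra6 (12.82, next 8.32), 0.748 for Car8 (12.91, next 9.23), 0.605 for Cbln3 (10.90, next 7.80) and 0.584 for Pcp2 (11.02, next 8.34). Among other cerebellar genes it was 0.861 and 0.797 for the 2 Nfix probe sets, 0.846 for Ppp1r17 (12.63, next 7.98), 0.813 and 0.797 for the 2 of Neurod1, 0.782 for Rgs8, 0.737 and 0.686 for the 2 of Hopx and 0.721 for Cbln1. Among the remaining genes it was 0.816 and 0.638 for the 2 Rnf112 probe sets, 0.787 for Itpka, 0.758 for Crtam (10.25, next 6.16), 0.622 for Dgkz, 0.59 for Kitl and 0.532 for Faap20.

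The other 4 were mild presbycusis arrays outside the rule. Crtam was high on mild 8 (0.702, 6.84 with the next at 5.42), Kitl was low on mild 5 (0.578, 8.92 with the next at 9.31), Itpka was low on mild 6 (0.552, 5.17 with the next at 6.22) and Hopx was low on mild 3 (0.494, 6.80 with the next at 7.43). The middle-aged group, with 17 arrays, was too large for this check, so middle-aged 7 and 8 were not examined by it.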

How the results depend on the processing

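The differences of the 25 probe sets counted higher with 1 symbol kept their sign in all 323 values computed for them (0.47 to 5.37). Leaving out 1 of the 3 arrays gave 3.51 to 5.01 for Gabra6, 1.90 to 3.74 for Car8, 1.84 to 3.23 for Cbln3 and 1.49 to 2.81 for Pcp2. The counts (higher and lower) depended on the rule: 16 and 0 against all 36 other arrays (15 of the 27 shared), 51 and 19 with a difference of at least 0.5, 8 and 0 with at least 2, 70 and 31 with no minimum, and 14 and 0 with plain probe sets only. They were 697 and 636 within young controls alone, where 1 array faces 7, and 52 and 32 within middle-aged mice alone. The lower count was 0 after centring, with a pseudocount of 64 or without the sex covariate, and 3 with a pseudocount of 1. Leaving out 1 of the 3 arrays gave 27 to 112 higher and 15 to 18 lower: 27 and 15 without young control 2 (13 of the 27 shared), 43 and 18 without middle-aged 7, 112 and 16 without middle-aged 8.

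Called slopes on Gabra6, positive and negative, numbered 0 and 0 after quantile normalization, after centring, in young control and middle-aged arrays only, and in the young control, middle-aged and mild arrays each alone, where fewer arrays enter. With the mean of the 4 markers in place of Gabra6 they were 251 and 8. The negative count was 0 with a pseudocount of 64, without the 40 percent dimmest probe sets and without the 2 arrays farthest from the median (mild 2, severe 3). Leaving out 1 array gave 0 to 4 positive and 0 to 1 negative. The slope of Pcp2 reversed, never past the threshold, to -0.076 after quantile normalization, -0.067 after centring, -0.041 without the 2 farthest arrays, -0.038 in young control and middle-aged arrays, -0.22 in middle-aged arrays alone, -0.018 without young control 1 and -0.064 without severe 3. That of Cbln3 was -0.26 in young controls alone. Except where fewer arrays or probe sets enter, the cause was not tested.

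For middle-aged against young, centring gave a count of 0, and leaving out 1 array 0 to 2 (0 without young control 1 or young control 2, 2 without young control 4, with Spg20 added). Pcp2 reversed to 0.021 with a pseudocount of 1, 0.0030 with the name suffix as a covariate, 0.29 without the 3 arrays, 0.07 without young control 1 and 0.48 without young control 2. Cbln3 reversed to 0.13 without the 3 arrays and 0.36 without young control 2, and without that array Gabra6 reversed to 0.50 and Car8 to 0.20. Leaving out 1 array gave -0.51 to 0.50 for Gabra6, -0.36 to 0.36 for Cbln3, -0.59 to 0.20 for Car8 and -0.21 to 0.48 for Pcp2. None passed the threshold. The ratios of the RMA table, for middle-aged, mild and severe mice, moved too. With the median of the young mice they were 1.48, 1.13 and 0.971 for the first Gabra6 probe set, 1.03, 1.05 and 0.970 for the second and 1.06, 1.02 and 0.971 for Gabrd. Without the 3 arrays they were 0.982, 1.05 and 0.904, then 0.994, 1.07 and 0.988, then 0.984, 0.984 and 0.936. Leaving out 1 array (young control 2, or a severe mouse for the severe ratio), they were 1.38, 1.05 and 0.109 to 0.904, then 1.05, 1.07 and 0.440 to 0.988, then 1.02, 0.984 and 0.727 to 0.936.

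No paired analysis was possible because the replicate numbers follow the order of the samples and each mouse is in 1 group only. No header or label names the algorithm behind the intensities, values on dim probe sets are near the background, and fewer cells and less RNA per cell cannot be told apart. The arrays were chosen on 1 probe set, and 2 of the 3 carry most of the differences.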

Other observations

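Some genes, all but Lhx1 outside the lists and outside the naming rule, were chosen after their values were seen. They lay above the range of the other 22 arrays on middle-aged 7 and young control 2 together, and within it on middle-aged 8. Zic5, a relative of Zic1, read 9.22, 7.08 and 11.24 on middle-aged 7, middle-aged 8 and young control 2, against a median of 7.36 and a highest value of 8.21 on the other 22 arrays. Chd7, a chromatin remodeller known from granule cell development, read 10.64, 9.49 and 11.90, against 8.99, 9.42 and 9.83 (lowest, median and highest of the 22). The calcium release channel gene Ryr1, found in Purkinje cells as well as in muscle, read 8.05, 6.79 and 9.04, against 6.07, 7.09 and 7.81. Of 3 probe sets for Vim, the glial filament vimentin, 2 had the same pattern, at 9.04, 8.51 and 10.15, against 6.86, 7.69 and 8.71, and at 8.01, 7.38 and 9.00, against 5.70, 6.69 and 7.47. The remaining Vim probe set read 8.54, 8.18 and 10.07, against 5.91, 7.61 and 8.62, so only young control 2 was above the range there. The Purkinje factor Lhx1 followed it at one probe set (7.24, 6.60 and 7.76, against 4.73, 5.25 and 6.92) and differed by 0.15 ± 0.18 at the one that stands for it in the list.

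The 31 probe sets below the range on all 3 arrays had differences of -1.02 to -0.28 with a median of -0.54. Among them were Zfp36l2, an mRNA decay factor, at 8.63, 8.62 and 8.32, against 8.71, 9.32 and 9.58 (-0.80 ± 0.14), Cpeb3, a regulator of synaptic translation, at 8.38, 9.15 and 8.73, against 9.19, 9.51 and 9.80 (-0.77 ± 0.12), and Nags, a urea cycle enzyme, at 6.28, 6.33 and 5.98, against 6.41, 7.13 and 7.78 (-0.89 ± 0.24). They belong to none of the colliculus, myelin or GABA lists, and were likewise named after their values were seen.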
